A study of Mus musculus with 6 samples.

Results

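Non-cycling oligodendrocyte precursor cells (OPCs) were taken as the nuclei that carried the precursor transcripts Pdgfra, Cspg4, Tnr and Lhfpl3 without those of division, commitment or myelination. They were chosen on their own UMIs, the unique molecular identifiers that count captured transcripts. A nucleus was kept when it had at least 300 genes and at most 1% mitochondrial UMIs. Among these, an OPC held at least 3 UMIs of Pdgfra and Cspg4 together and at least 3 of Tnr and Lhfpl3. It held at most 2 of Gpr17, Neu4 and Bmp4, at most 1 of Top2a and Mki67, at most 1 of Mog and Mag, and at most 1 of Slc6a13. This left 2284 OPCs of 60724 nuclei, with 418, 550 and 393 in the 3 LPA libraries and 235, 409 and 279 in the 3 vehicle libraries. Because these 12 genes chose the nuclei, their values are a description and were not tested. The mitochondrial limit also used measured values, and the mitochondrial genes are given with and without it.

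The study modelled post-hemorrhagic hydrocephalus, the enlargement of the ventricles that can follow bleeding in the newborn brain, by injecting the blood lipid lysophosphatidic acid (LPA). C57BL/6 S-56 pups were operated on at P7, received either LPA or its carrier, bovine serum albumin, in 1 lateral ventricle, and were killed at P15; anesthesia, incision and carrier were common to both groups. Brains without olfactory bulbs and cerebellum gave 1 library per mouse, 3 of LPA-injected and 3 of vehicle-injected animals, from nuclei sorted as negative for the neuronal protein NeuN. The labels give no litter, batch or sex. Read from Xist and Y-linked UMIs, LPA replicate 1 and vehicle replicates 1 and 3 were male and the others female.

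OPCs are the dividing, migrating progenitors of the oligodendrocyte lineage, and remain spread through the brain in the adult. They are held in the precursor state by PDGF signalling through the receptor encoded by Pdgfra, and on leaving it they lose Pdgfra, pass through a committed stage marked by Gpr17, and then switch on myelin genes. In the mouse forebrain this course is at its height in the first postnatal weeks, and the white matter beside the ventricles is a main site of injury in hydrocephalus.

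The 6 libraries held 48852970 to 65688644 UMIs in all. OPCs contributed 2460771, 2724927 and 2078510 UMIs in LPA libraries and 1051455, 2038919 and 1115723 in vehicle libraries. The median OPC had 4238, 3722.5 and 3810 UMIs in LPA libraries and 3339, 3463 and 2984 in vehicle libraries, so every LPA library was deeper per OPC than every vehicle library. Any 2 libraries shared 268 to 303 barcodes, of which at most 1 was an OPC in both.

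Genes that the selection had not used placed these nuclei in the oligodendrocyte lineage. Sox10, a transcription factor of the whole lineage, stood at 256 CPM, the UMIs of a gene scaled to a common library total, over all OPCs and 149 CPM in all other nuclei. Olig1, its partner in specification, was at 130 and 50.3 CPM. Megf11, a cell surface protein with EGF-like repeats, was at a mean of 481 ± 51.9 CPM (SD, n = 6 libraries) in OPCs and 56.1 ± 9.99 in the rest. Vcan, which encodes the matrix proteoglycan versican, was at 490 ± 59.3 and 89.7 ± 17.6 CPM. Myelin oligodendrocytes, taken as nuclei with at least 3 UMIs of Mog and Mag, had Megf11 at 15 ± 1.97 CPM. Astrocytes, taken by Aqp4 and Fgfr3, shared Ptprz1, a receptor-type phosphatase, with OPCs, at 1641 ± 95.5 against 1922 ± 73.7 CPM.

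The heat map of marker genes sets OPCs beside the other stages of the lineage. The selection fixed a high Pdgfra in OPCs and cycling OPCs, so its levels are a description. It was at 851 ± 79.9 CPM in OPCs, 789 ± 133 in cycling OPCs, 309 ± 73.7 in committed precursors and 6.44 ± 1.43 in myelin oligodendrocytes. Here cycling OPCs met the same limits but held at least 2 UMIs of Top2a and Mki67, and committed precursors held at least 3 of Gpr17 and Neu4. Enpp6, a choline phosphodiesterase of newly forming oligodendrocytes that the selection did not use, was at 18.1 ± 4.08 CPM in OPCs and 373 ± 55.1 in committed precursors. Bcas1, a marker of the same step, was at 419 ± 48.9 and 2317 ± 284 CPM. Kif11, a spindle motor, was at 3.97 ± 1.13 CPM in OPCs and 146 ± 37.6 in cycling OPCs. Levels within a gene were set side by side here, and levels of different genes were not.

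**Figure D1:**
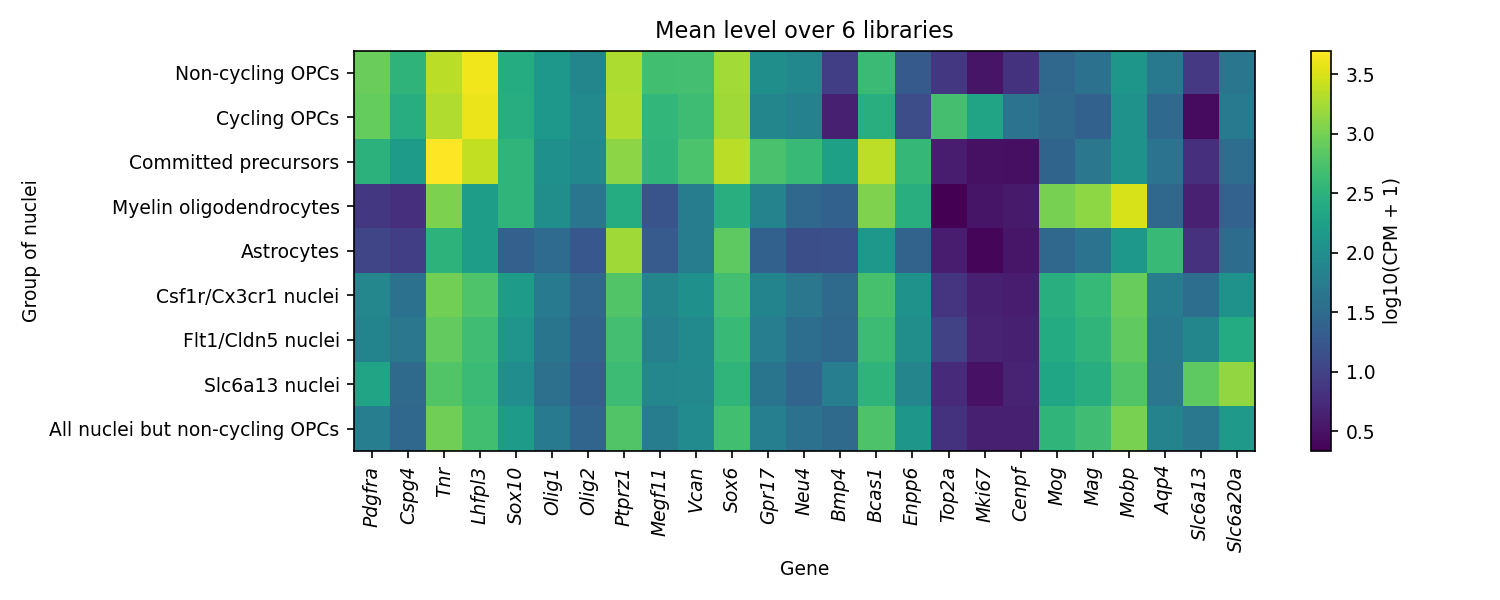
Mean level of marker genes (log10 of CPM + 1, over 6 libraries) in non-cycling OPCs and 8 other groups of nuclei, with 1 column per gene and 1 row per group. The precursor genes are bright in the upper 3 rows, Top2a and Mki67 in cycling OPCs, and Mog and Mag in myelin oligodendrocytes.

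The limits of the selection cut through graded levels. The 439 OPCs with exactly 3 UMIs of Pdgfra and Cspg4 had Sox10 at 250 CPM and Lhfpl3 at 3941 CPM. The 452 nuclei with 2, just outside, had 204 and 3080 CPM, and those with none had 20.7 and 514 CPM. Of the OPCs, 814 had no UMI of Gpr17, Neu4 or Bmp4 and 610 had 2, while 356 otherwise matching nuclei had 3 and fell outside. Sox10 was at 259 CPM on either side of that limit. Only 14 OPCs sat at the limit of 3 UMIs of Tnr and Lhfpl3, whose median over all OPCs was 30. Those 14 had no UMI of Sox10 or Olig2, so the few nuclei at this edge went against the label. At the limit on division, 97 OPCs held 1 UMI of Top2a or Mki67, and 44 nuclei held 2 and counted as cycling.

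Transcripts of other cell types were present in these nuclei. Between 30.5% and 43.1% of OPCs per library held at least 2 UMIs over 11 marker genes of astrocytes, microglia, endothelium and neurons. All 12 neuronal markers were detected, with a sum of 5826 to 6821 CPM over the libraries and Rbfox1 or Meg3 the most abundant. Markers of pericytes and fibroblasts, a list of 14 genes, summed to 345, 352 and 275 CPM in LPA libraries and 631, 454 and 636 CPM in vehicle libraries. Atp13a5 or Cped1 led this list, and Lum was at 0 in 4 libraries. Markers of mature oligodendrocytes summed to 629, 708 and 641 CPM against 891, 1003 and 887 CPM, and Mbp led in every library. These sums include Mog and Mag, and that of pericytes and fibroblasts Slc6a13, which the selection capped. Doublets were not called. In an alternative, OPCs, cycling OPCs and committed precursors with at least 2 UMIs over the 11 marker genes were left out. The other classes and the number of all nuclei stayed as they were. The 11 genes include none of the lists of mature oligodendrocytes or of pericytes and fibroblasts.

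OPCs made up a larger part of the nuclei in the LPA-injected brains. They were 4.90%, 5.36% and 4.32% of nuclei in LPA libraries (95% exact binomial intervals 4.45% to 5.38%, 4.93% to 5.81% and 3.91% to 4.76%). In vehicle libraries they were 2.90%, 3.30% and 2.26% (2.55% to 3.29%, 2.99% to 3.63% and 2.01% to 2.54%). Every LPA library was above every vehicle library. The means were 4.86% ± 0.521 and 2.82% ± 0.520 (SD, n = 3 each), a ratio of 1.72. A two-sided exact permutation test gave p = 0.1, the smallest that 3 against 3 libraries allow, so no share could pass 0.05.

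Counted within the oligodendrocyte lineage, OPCs were 18.2%, 19.4% and 15.9% in LPA libraries and 9.56%, 11.1% and 8.74% in vehicle libraries. The groups did not overlap, the ratio of the means was 1.82, and the exact permutation p was again 0.1. Myelin oligodendrocytes, the largest class of the lineage, were 17.8% ± 0.744 of nuclei in LPA libraries and 22.8% ± 1.39 in vehicle libraries. Committed precursors were 4.35% ± 0.259 and 2.84% ± 0.636 of nuclei. Shares of a whole move together, and the sort on NeuN and the recovery of nuclei stand before them, so more OPCs and fewer other nuclei cannot be told apart.

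Depth per OPC moved with the group, and the selection counts UMIs. With each nucleus thinned to 2000 UMIs and shallower ones left out, which kept 7755 to 9114 nuclei per LPA library and 7431 to 11047 per vehicle library, OPCs were 3.46%, 4.29% and 3.41% of nuclei in LPA libraries and 2.64%, 2.44% and 1.66% in vehicle libraries, still without overlap. Without OPCs carrying markers of other types, and with all nuclei still in the denominator, the means were 2.92% and 1.82%. Male libraries had 4.90% (1 LPA) and a mean of 2.58% (2 vehicle), and female libraries a mean of 4.84% (2 LPA) and 3.30% (1 vehicle).

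The cycling and committed shares of the precursors overlapped between groups. Cycling OPCs were 4.57%, 5.50% and 4.61% of cycling and non-cycling OPCs together in LPA libraries and 7.11%, 4.66% and 6.06% in vehicle libraries, with overlap (exact permutation p = 0.2). They rested on 18 to 32 nuclei per library, so that a single library's interval reached from 4.27% to 11.01% in vehicle replicate 1. Committed precursors were 46.3%, 44.6% and 47.3% of all precursors against 53.1%, 43.8% and 48.6% (exact permutation p = 0.5). A threshold of 5 UMIs in place of 3 was set for Pdgfra and Cspg4 and for Tnr and Lhfpl3 only. It left fewer OPCs and cycling OPCs, while committed precursors were the same nuclei as before. The committed share was then 56.7% ± 1.45 and 63.0% ± 3.26 (SD, n = 3 each), without overlap, and the exact permutation p was 0.1. Without nuclei carrying markers of other types, the difference, LPA minus vehicle, was -1.48 percentage points for the cycling share and -2.37 for the committed share. With nuclei thinned to 2000 UMIs the committed share was 36.1% and 42.4%, a difference of -6.30 points (exact permutation p = 0.2). Without OPCs carrying meningeal UMIs, the cycling difference was -0.36 points. With 1 library left out it lay between -1.70 and -0.47 for the cycling share, and between -4.77 and -0.17 for the committed share. The groups then did not overlap in the cycling share without LPA replicate 2 (-1.36) or vehicle replicate 2 (-1.70), nor in the committed share without vehicle replicate 2 (-4.77). The direction was not that of the whole within female libraries, where the cycling share differed by 0.39 and the committed share by 2.12 (2 LPA, 1 vehicle), against -2.02 and -4.58 in male libraries (1 LPA, 2 vehicle). The plot of shares by library shows this contrast between the 2 left and the 2 right panels.

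**Figure D2:**
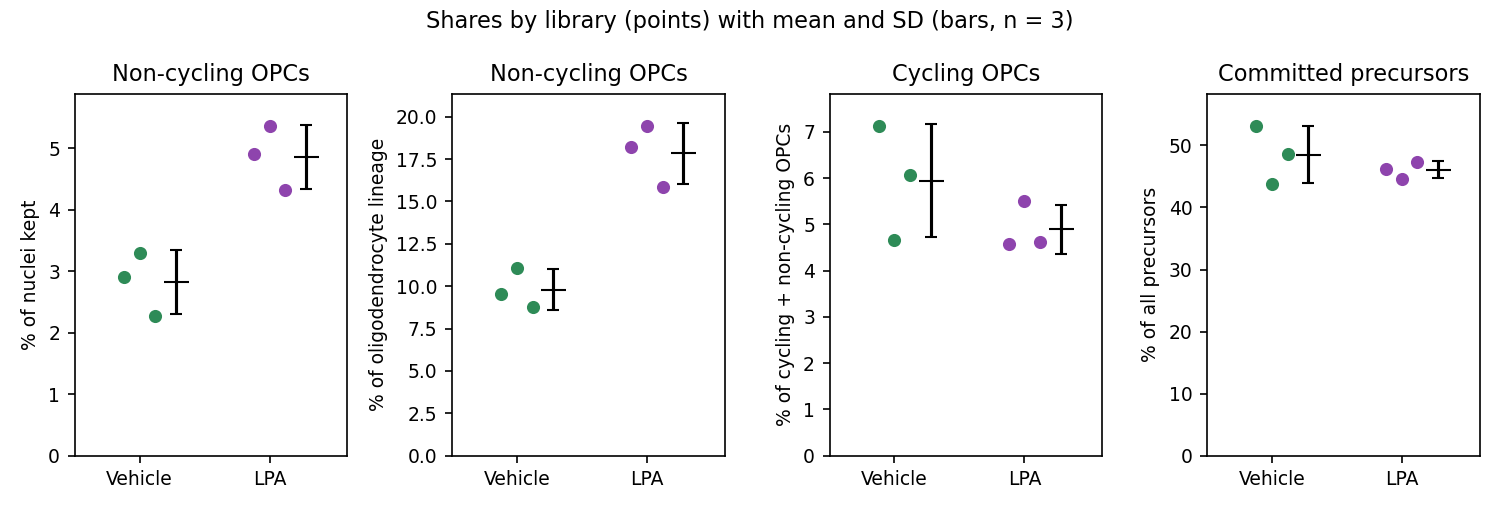
Share of each class by library (points) with the mean and SD (black bars, n = 3 per group), on axes that start at 0. Non-cycling OPCs are higher in all 3 LPA libraries, at 4.32% to 5.36% of nuclei against 2.26% to 3.30%, while the cycling and committed shares overlap between groups.

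The genes that varied most from one OPC to another included several best known from other cells. For 1621 OPCs thinned to 3000 UMIs, the variance over the mean across nuclei, which is 1 for counting error alone, had a median of 1.08 over 6706 genes. It was over 1.5 for 8.37% of genes. The highest was Htr2c, a serotonin receptor of choroid plexus and neurons, at 19.6 as the mean over libraries, with 3.69 to 40.2 in single libraries. Trpm3 (12.9), Kcnip4 (11.2), Cntnap2 (10.7), Slc1a2 (10.2), Malat1 (9.87), Reln (8.996), Galntl6 (8.40), Ttr (8.21) and Frmd4a (7.62) followed. Slc1a2, the main glutamate transporter of astrocytes, was at 7059 CPM in astrocytes and 1335 in OPCs. Ttr, the thyroid hormone carrier of choroid plexus, belongs with Htr2c in that tissue. In the 827 OPCs with under 2 UMIs of the 11 markers, Htr2c led at 14.2, with 0.932 to 37.8 in single libraries, so that in at least 1 library it was at counting error. Frmd4a was at 10.3 (2.05 to 32.1 in single libraries), Trpm3 at 9.82 (2.95 to 20.3), Malat1 at 9.34, Slc1a2 at 7.80 (6.31 to 10.4), Cntnap2 at 5.95 (1.86 to 20.98) and Kcnip4 at 4.93. Atp13a5, of the pericyte and fibroblast list, was at 7.72. Reln was at 3.61 and Galntl6 at 3.01, and Ttr was no longer among the 200 highest.

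Few genes passed the test between OPCs of LPA-injected and vehicle-injected brains. UMIs were summed per library over the OPCs and tested with edgeR's quasi-likelihood test over 12611 genes. CPM in the tested values were scaled by trimmed mean of M values factors. A call needed a Benjamini-Hochberg adjusted p under 0.05 together with a change of 0.25 or more on the log2 scale in either direction. It called 20 genes (0.159% of those tested), 2 higher in LPA (0.0159%) and 18 lower (0.143%), and 867 had an unadjusted p under 0.05. Of these 867 genes, 396 were higher and 471 lower in LPA. The median log2 fold change over all genes was -0.0039. The groups did not overlap for 768 genes that were higher (6.09%) and 780 that were lower (6.19%). The median SE was 0.19 on the log2 scale, and 0.11 for the 4056 genes with a mean of at least 50 CPM. In simulated counts, the same test called 13.1% of genes changed by 0.5 on the log2 scale. It called 68.7% of those changed by 1, and 5 unchanged genes. A gene without a call may therefore still differ.

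These calls depended unevenly on single libraries. Without vehicle replicate 3 no gene was called, and the lowest adjusted p was 0.0715 with edgeR, and all 20 genes kept their direction. Without LPA replicate 2 the count was 4, and without vehicle replicate 1 it was 46. Of the 20 genes, 17 stayed called without vehicle replicate 1 and 14 without vehicle replicate 2. Without LPA replicate 1 it was 15 of them, and without LPA replicate 3 it was 12. The called genes fell into mitochondrial transcripts, a myelin gene, genes abundant in meningeal nuclei, and a few others, shown by library in the plot of called genes.

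**Figure D3:**
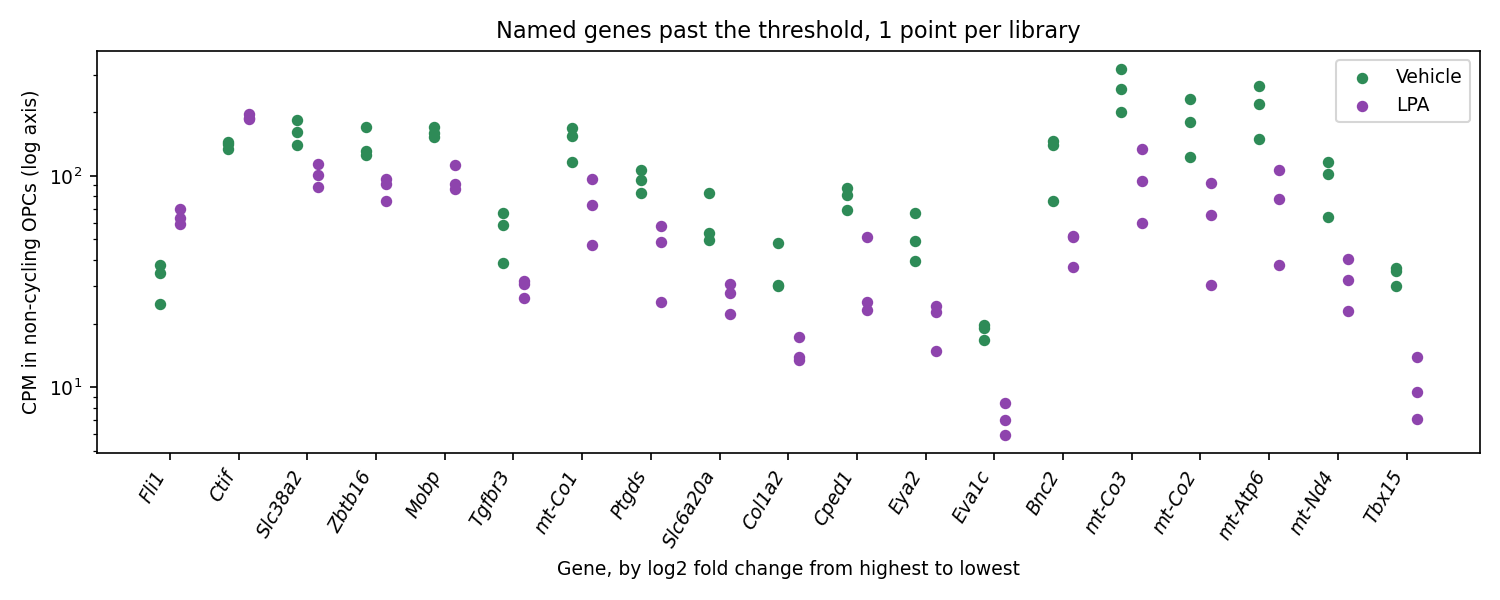
Level of the 19 named called genes in non-cycling OPCs (CPM, log axis), with 1 point per library and genes ordered by log2 fold change. For each gene the 3 LPA points lie wholly above (Fli1, Ctif) or wholly below the 3 vehicle points.

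Transcripts encoded by the mitochondrial genome made up 5 of the 18 genes that fell. mt-Co3, a subunit of cytochrome c oxidase, was at 60.1, 94.97 and 134 CPM in LPA libraries and 320, 200 and 258 CPM in vehicle libraries, without overlap. It fell by 1.42 on the log2 scale (SE 0.20, edgeR adjusted p = 0.00344). mt-Nd4, of complex I, fell by 1.52 (SE 0.21). The other 3 that fell were mt-Atp6, at a log2 fold change of -1.497, mt-Co2 at -1.49 and mt-Co1 at -1.0005. DESeq2 called mt-Nd4 alone of these 5 (adjusted p = 4.4e-07), with mt-Co3 at an adjusted p of 0.112 and mt-Atp6, mt-Co2 and mt-Co1 at 0.492, 0.716 and 0.615. With edgeR, all 11 mitochondrial genes tested had an unadjusted p under 0.05, of which mt-Nd5, mt-Nd3 and mt-Nd4l passed the filter on low counts only through the vehicle group, where they were high. In nuclei these transcripts come from outside the nucleus, and the selection itself capped them at 1%, so that these values are partly ones it used. With no mitochondrial limit, mt-Co3 stood at -1.57 and mt-Nd4 at -1.72 (edgeR adjusted p = 0.0074 for both), and the other 3 were also called.

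The mitochondrial share of OPC UMIs was 0.0246%, 0.0437% and 0.0608% in LPA libraries and 0.145%, 0.0817% and 0.116% in vehicle libraries. Most of the 5 also fell in other classes: mt-Co3 fell by 1.58 in committed precursors, by 1.36 in myelin oligodendrocytes and by 1.28 in astrocytes (edgeR adjusted p = 0.00503, 0.0245 and 0.00789), all from the same 6 libraries. In those classes mt-Co1 did not pass the test (adjusted p = 0.173, 0.1 and 0.0615), nor did mt-Atp6 in myelin oligodendrocytes (0.0572). The part that differences between libraries in carried-over RNA had in this was not tested.

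Mobp, which encodes a structural protein of compact myelin, was the single called gene of the lineage lists. It stood at 86.4, 112 and 91.1 CPM in LPA libraries and 153, 169 and 160 CPM in vehicle libraries. The highest LPA library was below the lowest vehicle library. It fell by 0.74 on the log2 scale (SE 0.11, edgeR adjusted p = 0.00602), and by 0.73 without nuclei carrying markers of other types (adjusted p = 0.00186). Those markers include no oligodendrocyte gene, so this step could not single out nuclei that carried myelin RNA. The level in OPCs, 127 ± 37 CPM over 6 libraries, was that of astrocytes (133 ± 35.1 CPM), which do not make myelin, close to committed precursors (110 ± 31.3 CPM) and far under myelin oligodendrocytes (3068 ± 234 CPM). It differed by -0.54 in astrocytes, by -0.64 in committed precursors and by -0.17 in myelin oligodendrocytes, without passing the test (edgeR adjusted p = 0.0555, 0.155 and 0.235). The response in OPCs minus that in myelin oligodendrocytes was -0.53 and did not pass (adjusted p = 0.0669). Myelin oligodendrocytes were a smaller share of nuclei in LPA libraries. Whether the OPCs' own transcripts or those released by oligodendrocytes differed was not tested.

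The promoter of Mobp is shown because it is the called gene of this lineage, with matches to the core of the SOX motif, the family of Sox10, in capitals (ACAAAG, or CTTTGT for the other strand). The window runs from 250 bases before to 50 after the RefSeq start on the plus strand of GRCm38.p6, chr9:120149492-120149791.
Mobp: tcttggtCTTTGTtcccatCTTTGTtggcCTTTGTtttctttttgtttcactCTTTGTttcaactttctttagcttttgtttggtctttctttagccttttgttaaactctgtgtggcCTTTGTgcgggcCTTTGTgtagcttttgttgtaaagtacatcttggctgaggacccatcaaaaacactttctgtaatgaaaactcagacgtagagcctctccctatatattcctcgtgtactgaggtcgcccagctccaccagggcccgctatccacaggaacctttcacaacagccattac
It held 6 matches, all as CTTTGT. At least 1 match was found in 18.7% of 32851 RefSeq promoters of the same length, and 6 or more in 0.00304%. A match of letters is a description and shows no binding.

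Beside Mobp, no other of the 17 premyelinating and myelin genes tested was called, and the list's median was -0.09. At an unadjusted p below 0.05, 5 were lower and none higher, with Mobp and Opalin among the 5. Mbp, myelin basic protein, was at 245 ± 5.10 and 313 ± 29.4 CPM (SD, n = 3 each) without passing the test (edgeR adjusted p = 0.18). Opalin differed by -1.33 (adjusted p = 0.18) and Mal by -1.23 (adjusted p = 0.21), at under 20 CPM in either group. Opalin passed the filter on low counts only through the vehicle group, where it was high, so its place in that count is a description. Of the 9 tested markers of mature oligodendrocytes Mobp was again the single call. None of the 9 was above 0, the median was -0.59, and 6 were lower at an unadjusted p under 0.05, Opalin among them. The groups did not overlap, with LPA lower, for 6 of the 9, against 6.19% of all genes tested. Opalin and Anln passed the filter only through the vehicle group. Their values, and the counts and median over the 9 that include them, are therefore a description.

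Of the 18 genes that fell, 9 were more abundant in meningeal nuclei than in OPCs. They were grouped among the called genes and not from a fixed list. The share of all tested genes that were likewise more abundant there is not given here. Tbx15, a T-box factor of mesenchymal cells, was at 9.46, 7.08 and 13.9 CPM in LPA libraries and 30.1, 36.5 and 35.6 CPM in vehicle libraries, without overlap. It fell by 1.80 (SE 0.23, edgeR adjusted p = 0.00344). Bnc2, a zinc finger protein of the meninges, fell by 1.41 and Slc6a20a, a proline transporter, by 1.15. Col1a2, a chain of type I collagen, fell by 1.25, and Ptgds, prostaglandin D synthase of the leptomeninges, by 1.09. Cped1 fell by 1.26, Eya2 by 1.33, Eva1c by 1.37 and Tgfbr3, the betaglycan receptor, by 0.90. All 9 were lower without overlap between groups, as was every other named gene called lower. The 9 were picked from genes called lower, so this is a description. It is not to be set against the 6.19% of all genes tested that were lower without overlap. Without nuclei carrying markers of other types none of the 9 was called: Ptgds stood at -0.37 (edgeR adjusted p = 0.841), while Bnc2 at -1.43, Eya2 at -1.48, Cped1 at -1.01, Slc6a20a at -0.88 and Tgfbr3 at -0.87 had adjusted p between 0.289 and 0.613, and Tbx15, Col1a2 and Eva1c were no longer tested. DESeq2 did not call Ptgds, Cped1, Eva1c or Tgfbr3 (adjusted p = 0.492, 0.412, 0.187 and 0.087). Eva1c was called in 5 of 17 alternatives and Tgfbr3 in 7 of 18. Of the 11 tested markers of pericytes and fibroblasts, 3 were called lower (Slc6a20a, Cped1 and Col1a2) and none higher. Of all genes tested, 0.143% were called lower. These 3 are among the 9 above, so this count is not separate from them. Dcn and Col1a1, which were not called, passed the filter on low counts only through the vehicle group.

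These genes were scarce in OPCs and abundant elsewhere. Ptgds was at 69 ± 31.3 CPM in OPCs and 2860 ± 463 in nuclei with at least 3 UMIs of the meningeal transporter gene Slc6a13. Slc6a20a was at 44.2 ± 22.4 and 1425 ± 302 CPM. Those Slc6a13 nuclei were 2.37%, 2.70% and 2.14% of nuclei in LPA libraries and 5.85%, 5.20% and 4.23% in vehicle libraries. Ptgds also fell in astrocytes, by 1.32, and in myelin oligodendrocytes, by 0.91 (edgeR adjusted p = 0.000384 and 0.0280). When OPCs with any UMI of 7 meningeal genes (Slc6a13, Slc6a20a, Col1a1, Col1a2, Dcn, Lum and Ranbp3l) were left out, an alternative added after seeing the data, the 6 mitochondrial and myelin genes were kept among 12 called. Of the other 14, Bnc2 stood at -1.42 and Ptgds at -0.999 (edgeR adjusted p = 0.0548 for both), Eya2 at -0.89, Tgfbr3 at -0.52 and Slc38a2 at -0.34 (adjusted p = 0.607, 0.703 and 0.741). Eva1c stood at -1.35, Cped1 at -1.05, Zbtb16 at -0.63, 4930555F03Rik at -0.91, Fli1 at 0.87 and Ctif at 0.41 (adjusted p between 0.123 and 0.46). Col1a2 and Slc6a20a are 2 of the 7 genes and were 0 by construction, and Tbx15 was not tested. The part of meningeal RNA in these values was not tested beyond this.

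Fli1, an ETS-family transcription factor of endothelial and blood cells, rose. It was at 69.9, 62.9 and 58.9 CPM in LPA libraries and 34.9, 37.9 and 24.6 CPM in vehicle libraries, without overlap. The log2 fold change was 0.94 (SE 0.15, edgeR adjusted p = 0.0129). In nuclei with Csf1r and Cx3cr1, the microglial group, Fli1 was at 273 ± 111 CPM, and in Flt1 and Cldn5 nuclei, the endothelial group, at 446 ± 111 CPM. The microglial group was 7.23%, 6.33% and 5.24% of nuclei in LPA libraries and 3.28%, 5.21% and 1.62% in vehicle libraries. The endothelial group was 4.01%, 4.17% and 4.48% against 4.79%, 3.51% and 3.73%, with overlap. In OPCs, the 11 tested markers of microglia and macrophages had a median of -0.07, with 0 higher and 1 lower at an unadjusted edgeR p under 0.05. The 8 endothelial markers had a median of 0.13, with 1 higher and 0 lower. Without nuclei carrying markers of other types, the difference was 0.25 and was no longer called (edgeR adjusted p = 0.953). From the same libraries, Fli1 rose by 1.04 in myelin oligodendrocytes and by 0.71 in astrocytes and stood at 0.95 in committed precursors (edgeR adjusted p = 0.0253, 0.043 and 0.0859).

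Ctif, a factor of the translation initiation that follows nuclear cap binding, was the other gene that rose. It was at 188, 196 and 187 CPM in LPA libraries and 134, 144 and 141 CPM in vehicle libraries, and differed by 0.44 (SE 0.09, edgeR adjusted p = 0.0473). It was called in 2 of 18 alternatives and reached 0.35 without nuclei carrying other markers (adjusted p = 0.574). In astrocytes Ctif rose by 0.39 (adjusted p = 0.0091).

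Zbtb16 and Slc38a2 fell. Zbtb16, a zinc finger repressor that glucocorticoids induce, was at 96.7, 76.3 and 91.1 CPM in LPA libraries and 125, 131 and 170 CPM in vehicle libraries, without overlap. It fell by 0.68 (SE 0.12, edgeR adjusted p = 0.0255). Slc38a2, an amino acid transporter induced when amino acids are short, was at 100, 89.0 and 114 CPM against 140, 161 and 183 CPM and fell by 0.68 (SE 0.11, adjusted p = 0.0155). Both lost their call without nuclei carrying other markers, at -0.63 and -0.56 (adjusted p = 0.423 and 0.369). Without OPCs carrying meningeal UMIs they stood at -0.63 and -0.34 (adjusted p = 0.422 and 0.741). Zbtb16 also fell in astrocytes, by 0.62 (edgeR adjusted p = 0.0446), and Slc38a2 in astrocytes, by 0.54, and in myelin oligodendrocytes, by 0.32 (adjusted p = 0.00721 and 0.0364). Of 16 glucocorticoid target genes tested, Zbtb16 was the single call, the median was -0.24 and 6 were lower at an unadjusted p under 0.05. Over all 12611 genes tested, 18 were called lower (0.143%) and 471 were lower at that p. Fkbp5, a chaperone of the glucocorticoid receptor, was at 66.8 ± 10.3 and 106 ± 23.8 CPM (SD, n = 3 each; edgeR adjusted p = 0.129) and Tsc22d3, a glucocorticoid-induced leucine zipper protein, differed by -0.72 (adjusted p = 0.373). In astrocytes Fkbp5 fell by 1.17 (adjusted p = 0.000252). An unnamed transcript, 4930555F03Rik, fell by 1.01 (edgeR adjusted p = 0.0159) and was called in 10 of 18 alternatives. It stood at -0.95 without nuclei carrying other markers and at -0.72 with an upper limit on UMIs per nucleus (adjusted p = 0.626 and 0.383).

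The genes that make an OPC did not pass the test. None of the 21 tested lineage transcription factors was called by edgeR or DESeq2, 1 was higher and 2 lower with an unadjusted p below 0.05, and the median was 0.03. Sox10 was at 261 ± 20.5 CPM with LPA and 256 ± 16.5 CPM with vehicle (SD, n = 3 each), a log2 difference of 0.02 with a 95% interval of -0.15 to 0.20. Hes5, a Notch effector that holds precursors undifferentiated, differed by -0.45, and St18, a factor of maturing oligodendrocytes, by -0.51 (edgeR adjusted p = 0.21 for both). The 26 adhesion and matrix genes lay between -0.05 and 0.22, the narrowest list, with a median of 0.08, no call and 3 genes higher at an unadjusted p under 0.05. Ntm, a neuronal adhesion protein of the IgLON family, was the gene of lowest p, at 0.19 (adjusted p = 0.57).

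Signals that OPCs receive showed no call either. Of 23 growth factor receptors and ligands tested none was called, 2 were higher and 1 lower with an unadjusted p below 0.05, and the median was 0.02. Igf1r, the insulin-like growth factor receptor, differed by 0.27 (edgeR adjusted p = 0.60), and Nrg1, a neuregulin, by 0.17 (adjusted p = 0.75). Of 13 feedback and target genes of the ERK pathway none was called, 3 were higher and none lower with an unadjusted p below 0.05, with a median of 0.07. Spred2, an inhibitor of the pathway, was at 167 ± 6.77 and 129.6 ± 8.63 CPM without overlap (SD, n = 3 each; adjusted p = 0.215), and Il17rd, another, differed by 0.61 (adjusted p = 0.37). The 27 transmitter receptors and ion channels, through which OPCs sense neurons, had no call, 2 genes higher and 2 lower with an unadjusted p below 0.05, a median of 0.03 and no gene with separate groups. Grm7, a glutamate receptor, was at -0.22 (adjusted p = 0.64). The 25 Notch, Wnt and BMP genes had no call, 1 gene higher and 1 lower at that p and a median of 0.06, with Notch2, a Notch receptor, at -0.35 (adjusted p = 0.56).

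Injury-related lists were likewise without a call. Among 12 reactive glia genes, of which 3 were higher and none lower with an unadjusted p below 0.05, Gfap, the intermediate filament of reactive astrocytes, was at 33.7, 32.0 and 29.2 CPM in LPA libraries and 8.48, 23.2 and 9.12 CPM in vehicle libraries. These values did not overlap, and the difference of 1.04 did not pass (SE 0.26, edgeR adjusted p = 0.211). Spp1, osteopontin, differed by 1.47 (adjusted p = 0.40) and C4b, complement component 4, by 1.03 (adjusted p = 0.44). Spp1 and C4b, which are 2 of the 3 higher genes, passed the filter on low counts only through the LPA group, where they were high. Gfap rose by 1.19 in astrocytes, where it is made, and also by 1.57 in committed precursors and 1.54 in myelin oligodendrocytes of the same libraries (edgeR adjusted p = 4.08e-05, 0.00503 and 0.000272). Of 9 interferon and antigen presentation genes none was called, 1 was higher at an unadjusted p under 0.05 and the median was 0.08, with Stat2, an interferon signal transducer, at 0.38 (adjusted p = 0.71).

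The metabolic and timing lists were also without a call. Of 14 hypoxia and glycolysis genes, with a median of -0.05, Pfkfb3, which drives glycolysis, differed by 0.67 (edgeR adjusted p = 0.35). The 16 genes of cholesterol synthesis and uptake had a median of 0.13. Of 17 cell cycle genes outside the selection, with a median of -0.03, Cdk6 differed by 0.45 (adjusted p = 0.37). Of 14 regional identity genes, with a median of -0.22, Zic4 and Zic1 differed by -0.65 and -0.67 (adjusted p = 0.33 and 0.40). Medians of the circadian and immediate-early lists were 0.04 and 0.03. At an unadjusted p under 0.05, these 6 lists held 7 genes that were higher and 3 that were lower. No gene of the 15 lists without a call given here was called by DESeq2.

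**Figure D4:**
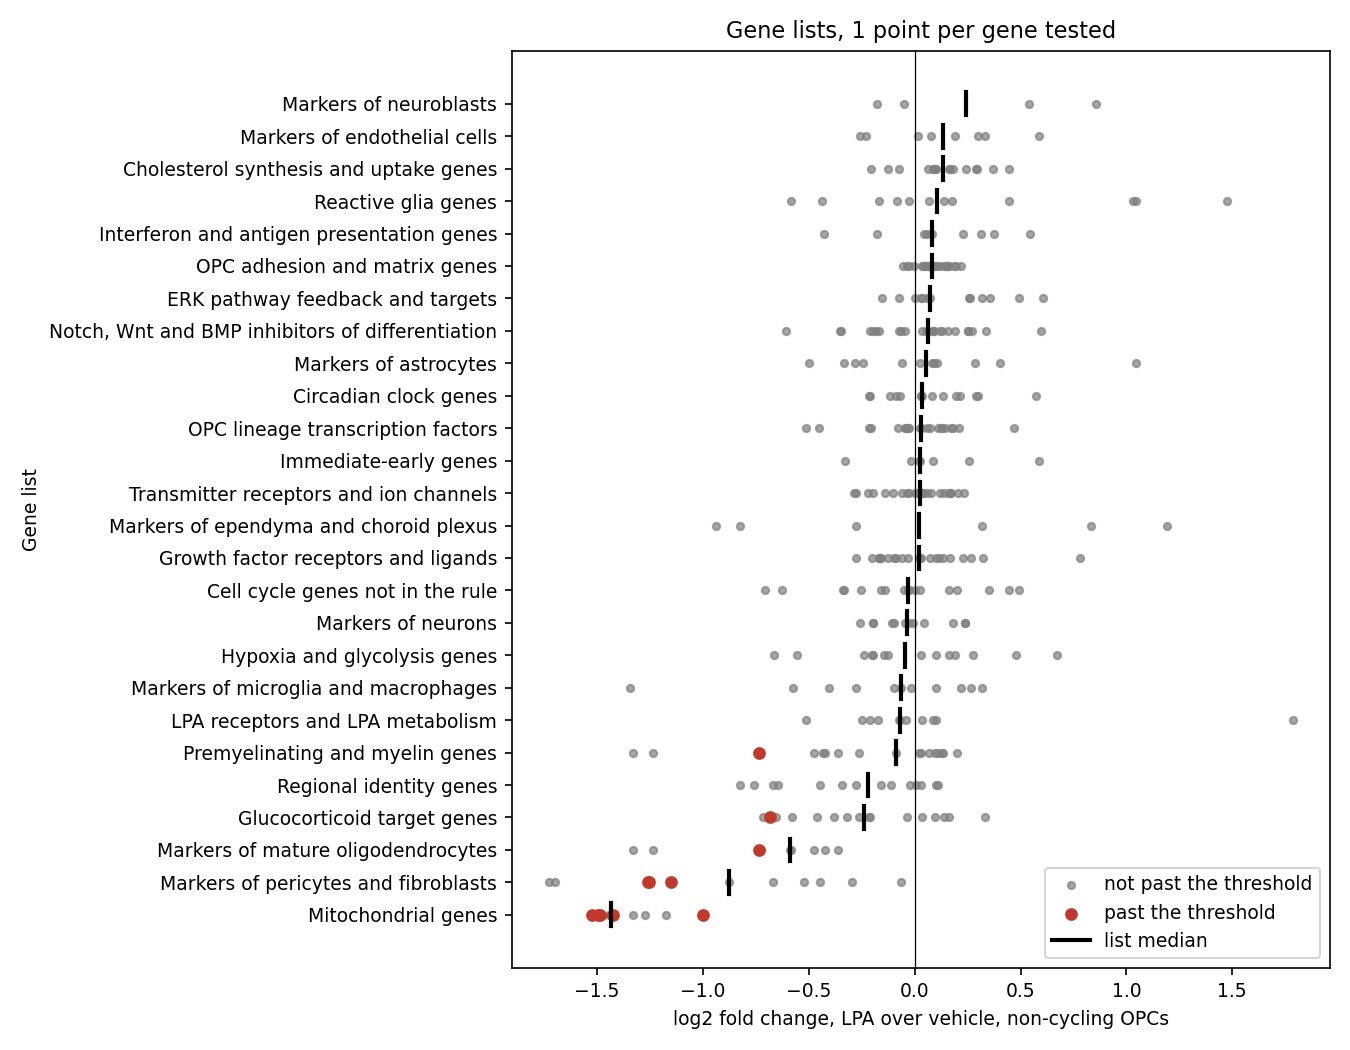
Log2 fold change (LPA over vehicle) of every tested gene of 26 lists in non-cycling OPCs, with 1 point per gene, called genes in red and list medians as black bars. The OPC lists gather around 0, and the 4 lists with the lowest medians, at the bottom, hold mitochondrial, pericyte and fibroblast, mature oligodendrocyte and glucocorticoid target genes.

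The receptors for LPA itself were sparse in OPCs. Lpar1, the receptor most studied in the developing brain, was at 22.6, 11.5 and 18.3 CPM in LPA libraries and 17.9, 29.6 and 23.7 CPM in vehicle libraries, with overlap (edgeR adjusted p = 0.74). Its level over 6 libraries was 20.4 ± 6.12 CPM in OPCs and 256 ± 10.2 in myelin oligodendrocytes. Lpar3 was at 8.64, 6.70 and 10.4 CPM in LPA libraries and 1.88, 1.48 and 4.56 CPM in vehicle libraries. These were 18 to 21 UMIs per LPA library and 2 to 5 per vehicle library. Lpar3 passed the filter on low counts only through the LPA group, where it was high, so that its separation is a description, and it was not called (edgeR adjusted p = 0.22). Lpar6 overlapped, at -0.08 (SE 0.44). Lpar2, Lpar4 and Lpar5 were under the filter on low counts, with 0 to 5, 4 to 15 and 0 to 1 UMIs per library. Enpp2, which encodes autotaxin, the enzyme that makes LPA outside cells, was at 283 ± 18.0 and 328 ± 15.6 CPM without overlap (SD, n = 3 each; adjusted p = 0.61). Of 11 genes of this list tested none was called by edgeR or DESeq2, and the median was -0.07. At an unadjusted p below 0.05, 1 was lower, and the 1 that was higher was Lpar3, whose value is a description.

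The response of OPCs was then set against that of other classes in 1 model per pair, with the library as a block. Beside committed precursors, the next stage, no gene of 13265 differed in its response (0%; edgeR), with 610 at an unadjusted p under 0.05. DESeq2 was not run on these models. Eya2 had the lowest p, at -1.13 (adjusted p = 0.0971). Committed precursors had 13 of 12312 genes called in their own comparison (0.106%), near the share in OPCs. Myelin oligodendrocytes had 127 of 16656 (0.762%) and astrocytes 317 of 14751 (2.15%), with more nuclei behind both.

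Beside myelin oligodendrocytes 1 gene of 16395 differed (0.0061%). Pstpip2, an adaptor of the actin cytoskeleton, was at 207, 220 and 217 CPM in OPCs of LPA libraries and 187, 162 and 177 CPM in those of vehicle libraries. In myelin oligodendrocytes it was at 178, 166 and 165 against 207, 219 and 248 CPM, so the groups separated in opposite directions. The difference of the responses was 0.75 on the log2 scale (SE 0.10, edgeR adjusted p = 0.000411). The response within OPCs, 0.32, did not pass alone (adjusted p = 0.241).

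Beside astrocytes 12 genes of 14487 differed (0.0828%), 3 with a larger and 9 with a smaller value in OPCs. Emid1, an extracellular matrix gene, was at 292, 351 and 329 CPM in OPCs of LPA libraries and 380, 292 and 359 CPM in vehicle libraries, with overlap. In astrocytes it was at 69.0, 77.0 and 69.4 against 39.4, 35.7 and 40.6 CPM. The difference of the responses was -0.96 (SE 0.12, edgeR adjusted p = 0.000579). Matn4, matrilin of the extracellular matrix, was alike, at 0.09 in OPCs and 1.01 in astrocytes (difference -0.89, adjusted p = 0.019). Both were at a higher level in OPCs than in astrocytes, and rose in the latter.

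Grik1, a kainate receptor subunit, differed by 0.90 (adjusted p = 0.0107): it was at 0.16 in OPCs and fell by 0.71 in astrocytes. Pdzrn3, a ubiquitin ligase, differed by -1.09 (adjusted p = 0.000868) with -0.49 in OPCs and 0.60 in astrocytes. Nwd2 differed by 1.32 (edgeR adjusted p = 0.0052) and was not called without nuclei carrying other markers, at 0.53 (adjusted p = 0.876). Col4a6, a chain of type IV collagen, differed by -2.11 (adjusted p = 0.00834) at 11.9 ± 5.91 CPM in OPCs and 196 ± 40.7 in Slc6a13 nuclei. The plot of paired responses shows that in all 6 the astrocyte value is the one farther from 0.

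**Figure D5:**
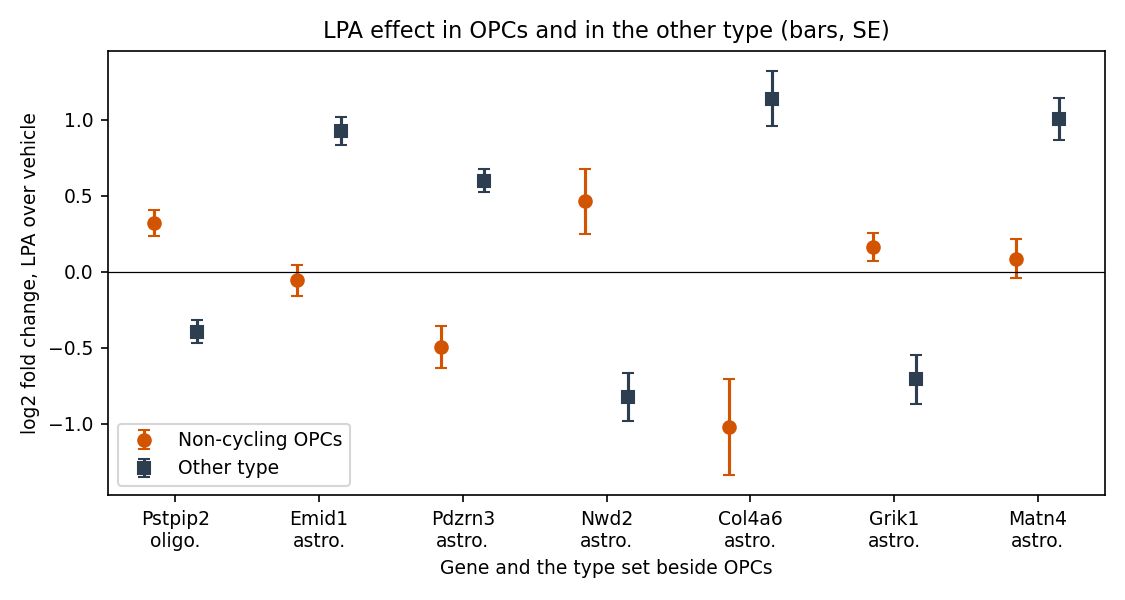
Log2 fold change (LPA over vehicle, with SE bars) in non-cycling OPCs (circles) and in the class set beside them (squares) for 7 genes whose responses differed. For each gene the SE bars of the 2 classes are apart.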

How the data were processed

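UMI counts per gene and barcode were deposited by the authors for 6 libraries of 10x 3′ nuclei. The submitters' notes name Cell Ranger 4.0.0 and build mm10, and per the study's methods the reference held introns. All 32285 genes were read, and OPCs were selected by the limits in the text. UMIs were summed per library and tested in edgeR 4.0.16 (R 4.3.3, TMM, filterByExpr, quasi-likelihood, Benjamini-Hochberg), with DESeq2 1.42.0 as an alternative. The library, 1 mouse each, was the replicate. Shares were compared by exact permutation over 20 assignments, and their intervals are Clopper-Pearson and cover counting error only. Scripts were tested on simulated data. No doublet caller was run. As an alternative, OPCs, cycling OPCs and committed precursors with at least 2 UMIs of other types' markers were left out. Myelin oligodendrocytes and astrocytes were not filtered in this way.

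The members and gene lists were chosen with earlier results of these data known. Named genes were up to 12 called each way, up to 4 of lowest p per list, the genes of the selection, the LPA receptors, up to 6 per model of 2 classes, and the 10 most variable. Leaving out OPCs with meningeal UMIs was chosen after seeing the data. CPM by class were not TMM-scaled. Gene positions are GRCm38. Of the called genes, only the promoter of Mobp was taken from the RefSeq table. Some items are not reported here.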

Additional observations from a re-analysis of the deposited data

Results flagged for a closer look

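The response to LPA differed between OPCs and another class for 7 named genes, by the test of the difference itself (edgeR quasi-likelihood, Benjamini-Hochberg). Against myelin oligodendrocytes, Pstpip2 had a log2 difference of 0.75 (adjusted p = 0.000411). Against astrocytes, Emid1 had -0.96, Pdzrn3 -1.09, Nwd2 1.32, Col4a6 -2.11, Grik1 0.90 and Matn4 -0.89, with adjusted p of 0.000579, 0.000868, 0.0052, 0.00834, 0.0107 and 0.019. Pstpip2, Emid1 and Pdzrn3 stayed past the threshold in all 13 alternatives run for them. Grik1 lost its call in 2 of 13, Col4a6 in 4, Nwd2 in 5 and Matn4 in 6.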

How the results depend on the processing

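No result turned its direction under the alternative settings; within female libraries the cycling and committed shares did, at 0.39 and 2.12 percentage points. The 20 genes called in OPCs became 118 with no filter on low counts, 40 with an upper limit on UMIs per nucleus, 44 at a threshold of 2 UMIs and 7 at 5, 10 without nuclei carrying other markers, 12 without meningeal UMIs (chosen after seeing the data) and 13 with DESeq2. Leaving out 1 library gave 0 (vehicle replicate 3) to 46 (vehicle replicate 1), and 4 without LPA replicate 2. With a replicate block the count was 17; the numbers did not pair the libraries (same-numbered r of 0.043, 0.040 and -0.025). Genes whose response differed from committed precursors, 0, became 7 with no filter, 2 with the UMI limit, 1 at a threshold of 2 and 4 without mixed nuclei, and 0 to 4 with 1 library left out. Against myelin oligodendrocytes, 1 became 7 with RLE factors, 52 with no filter, 5 with no mitochondrial limit, 30 with the UMI limit, 13 and 5 at thresholds of 2 and 5, and 11 without mixed nuclei, and 1 to 27 with 1 library left out (27 without vehicle replicate 2, 24 without LPA replicate 1). Against astrocytes, 12 became 39 with no filter, 2 at a threshold of 5 and 7 without mixed nuclei, and 2 (without vehicle replicate 3) to 11. The causes were not tested. The OPC share difference, 2.04 percentage points, lay between 1.76 and 2.31 with 1 library left out, and its sign-flip p over same-numbered pairs was 0.25, the smallest possible. The smallest called change was 0.44 on the log2 scale.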
